A study of Oryctolagus cuniculus with 16 samples.

Results

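The genes described here carry newly made proteins into the endoplasmic reticulum (ER), fold them there and move them between the ER and the Golgi. They were chosen by symbol: the SEC11, SEC13, SEC16, SEC22, SEC23, SEC24, SEC31, SEC61, SEC62 and SEC63 families, the COP coat genes, the TMED cargo receptors, the PDIA disulphide isomerases, SSR1 to SSR4, the SRP genes, the KDELR receptors and CANX. Of 13788 gene symbols in the count table, 52 met this rule, and all 52 had a count in at least 1 library, 49 of them in all 16. Calreticulin (CALR), the protein disulphide isomerase P4HB, COPE and the SPCS genes fall under the same families but were not analysed here. Counts came from 4 female New Zealand white rabbits. Rabbits 3 and 4 had a sham operation, and rabbits 5 and 6 had both common carotid arteries ligated, which raises flow through the basilar artery. All were killed 24 h after surgery, and their age is not given in the sources used here. From each rabbit, the intima and the media of the straight basilar artery (BA) and of the basilar terminus (BT) were cut out by laser microdissection, with tissue of several sections pooled per library. This made 8 groups of 2 rabbits, so each ligation comparison set 2 ligated rabbits against 2 sham rabbits.

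As background, the signal recognition particle (the SRP genes) binds a ribosome that is making a secreted or membrane protein and brings it to the SEC61 channel. SEC62 and SEC63 help other proteins through, the SSR (translocon-associated) proteins sit beside the channel, and SEC11 proteins cut off the signal peptide. CANX is a lectin chaperone that holds glycoproteins, and the PDIA enzymes form and rearrange their disulphide bonds. Folded cargo leaves in COPII vesicles, built from SEC23, SEC24, SEC13 and SEC31 on sites marked by SEC16. COPI vesicles carry material back, KDELR receptors return escaped ER residents, TMED proteins sort cargo, and SEC22B helps vesicles fuse. Endothelial and smooth muscle cells both use this route to put out collagens, elastin and receptors. By role, the 52 genes were 16 of translocation, 5 of folding, 10 of COPII, 6 of COPI, 9 TMED, 3 KDELR and 3 SEC22 genes.

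Named genes held 5211886 to 17686105 counts in the intima libraries and 2154863 to 11219236 in the media libraries. TMED8 and SEC16B had a median of 10 or fewer counts per library, and the other members had medians of 23.5 to 5940.5. Of the cell type markers tested between layers, 5 of 7 endothelial markers were called higher in the intima and 5 of 6 smooth muscle markers were called higher in the media. The intima strips still held smooth muscle transcripts. Summed over the smooth muscle list, they carried 10590.0 to 74417 TMM-scaled CPM (counts for each 1000000 counts of the library), against 67146 to 118063 in the media. Summed markers of leptomeningeal fibroblasts were lower after ligation in 3 tissues without overlap. In the BA media they were at 16170.2 and 22066 CPM in the sham rabbits and 5557 and 5713 CPM in the ligated rabbits. In the BT media the values were 13958 and 18244 against 5246 and 6455 CPM, and in the BT intima 5434 and 17167 against 587 and 1129 CPM. In the BA intima the ranges overlapped, at 3519.9 and 10231 against 1078 and 4228 CPM. Of the 8 leptomeningeal markers, 3 were called lower in the BA media (DCN, OGN and COL1A2) and 1 in the BT media (OGN). Summed macrophage markers were also lower after ligation in the BT intima (138 and 1096 CPM in the sham and 56.7 and 121 CPM in the ligated rabbits) and the BA media (255 and 336 against 66.0 and 169.8 CPM), and higher at the BT in the media (67.1 and 90.6 against 105 and 171 CPM). The smooth muscle list did not go 1 way. Its sum, made up mostly of ACTA2, was higher in the ligated BA media, at 75360.1 and 84267 against 101350.0 and 118063 CPM, but 3 of its 6 genes were lower there by fitted sign (median log2 fold change -0.28), among them MYH11 with 1424 and 1660.0 CPM in the sham rabbits and 454 and 909 CPM in the ligated rabbits. In the BT media MYH11 and LMOD1 of this list were called lower, while its sum overlapped. Summed endothelial markers overlapped between the flow groups in all 4 tissues, with VWF and CLDN5 highest in the intima of sham rabbit 4. Gene by gene, 6 of 7 were higher after ligation in the BT intima (median log2 fold change 0.80) and 5 of 7 in the BT media (1.46), against 3 of 7 in the BA intima (-0.09) and 5 of 7 in the BA media (0.23), and none was called. In the BT intima PECAM1 was at 187 and 497 CPM in the sham rabbits and 812 and 641 CPM in the ligated rabbits, and TEK at 80.1 and 102 CPM in the sham rabbits and 347 and 277 CPM in the ligated rabbits. Brain markers summed to at most 8.23 CPM, with the astrocyte gene AQP4 at 0 in every library. The part of these shifts in the results below was not tested.

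The summed expression of the 52 genes was higher in the ligated than in the sham rabbits at both locations and in both layers. Levels are given as CPM scaled by TMM, a correction for library composition. The BA intima summed to 6529 and 8356 CPM in the sham rabbits and 9236 and 9963 CPM in the ligated rabbits, a ratio of means of 1.29. The BT intima went from 6448 and 8002 to 9371 and 9454 CPM, a ratio of 1.30. No ligated library lay below a sham library of the same tissue. The BA media summed to 6957 and 8506 against 10748 and 11058 CPM, a ratio of 1.41, and the BT media to 6891 and 8443 against 9393 and 10013 CPM, a ratio of 1.27. In each tissue the lower sham value was that of rabbit 4. Without TMM scaling, the genes took 0.618 to 0.939% of the counts in the sham libraries (median 0.710%) and 0.945 to 1.12% in the ligated libraries (median 0.977%), so all 8 ligated libraries were above all 8 sham libraries by a narrow margin. The sum is dominated by well counted genes such as SRP14, PDIA3 and SSR3, and no test was run on it. The 4 tissues also came from the same 4 rabbits and are not independent. In tissue RNA of this kind, fewer cells of a type and less RNA per cell cannot be told apart.

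**Figure D1:**
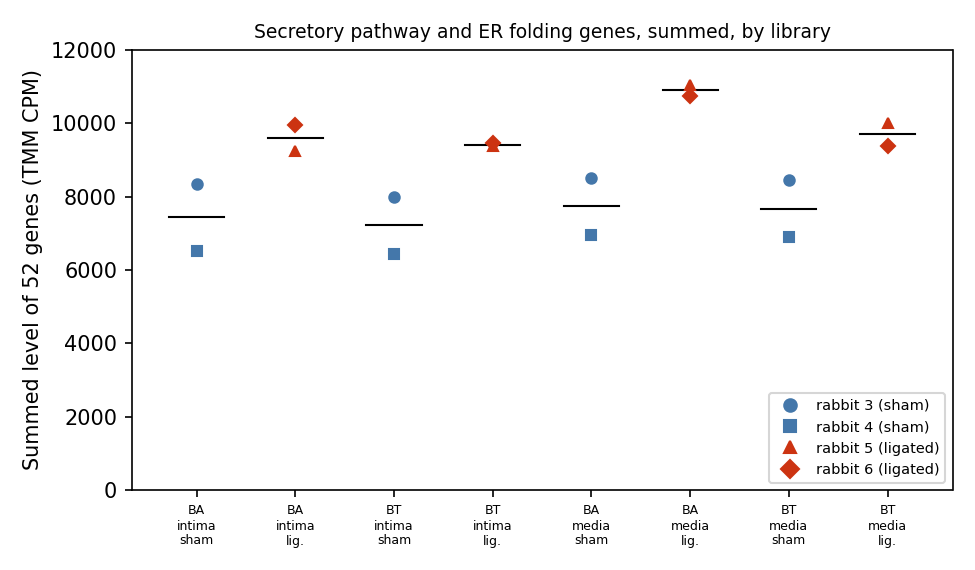
Summed level of the 52 genes in each library, in TMM-scaled CPM, by tissue and flow group. Points are rabbits and black bars are means of 2 rabbits; in every tissue both ligated rabbits lie above both sham rabbits.

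The ratios differed in size among the roles. The folding genes had a ratio of ligated to sham means of 2.44 in the BT intima, where the sham rabbits were at 695 and 936 CPM and the ligated rabbits at 1893 and 2090.2 CPM. Their ratio was 1.56 in the BT media, and in the BA it was 1.51 for the intima and 1.28 for the media. The KDELR genes, which fetch chaperones back to the ER, had ratios of 2.57, 2.42 and 2.30 in the BT intima, BA media and BT media, and 1.27 in the BA intima, where the groups overlapped. For the TMED genes the ratio was 1.72 in the BT intima and 1.75 in the BT media, and 1.19 and 1.23 in the BA intima and media. The TMED groups overlapped in the BA intima, at 344 and 382 CPM in the sham rabbits and 323 and 542 CPM in the ligated rabbits. The COPI genes, the return coat, stayed between 1.08 and 1.21 in all 4 tissues, with overlapping groups in both media. COPII ratios ran from 1.14 to 1.28, with overlap in both layers of the BA. SEC22 ratios ran from 1.01 to 1.19, and only the BT intima was without overlap. The 16 translocation genes had ratios of 1.57 in the BA media and 1.32 in the BA intima. At the BT their ratio was 1.24 in the media and 1.08 in the intima. Those BT intima groups overlapped, at 3667 and 4826 CPM in the sham rabbits and 4448 and 4730 CPM in the ligated rabbits.

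Most members had a higher fitted level after ligation, but single genes rarely passed the test across all genes. In the BA intima 34 of 52 members were higher by fitted sign (background 45.8% of all genes tested), and in the BT intima 41 of 52 (background 45.1%). In the BA media the count was 40 of 51 (background 44.7%) and in the BT media 38 of 51 (background 50.8%). The median log2 fold change of the members was 0.28, 0.40, 0.45 and 0.41 in these 4 tissues, beside -0.10, -0.13, -0.15 and 0.03 over all genes tested. The members stood above the other genes by this measure in each tissue. By edgeR's quasi-likelihood F test with a q-value below 0.05, no member was called in the BA intima (background 0.0%), the BT intima (background 0.0%) or the BA media (background 0.807%). In the BT media 1 was called, SEC61A1, which was higher (background 2.35%, made of 1.16% higher and 1.18% lower).

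At an unadjusted p under 0.05 most of the members that passed were higher in the ligated rabbits. The BA intima had none in either direction, against a background of 2.52% of genes higher and 3.43% lower, and DESeq2 also called none. The BT intima had 5 higher and 1 lower (background 4.3% and 7.33%), and the BA media 8 higher and 1 lower (background 6.62% and 6.98%). The BT media had 14 higher and 2 lower (background 7.96% and 7.99%). DESeq2 called 3 of 52 members in the BT intima, where it called 6.61% of all genes, and 5 of 51 in the BA media, where it called 5.60%. In the BA intima both ligated rabbits were above both sham rabbits for 11 of 52 members (background 15.4%), and in the BT intima for 25 of 52 (background 20.4%). The BA media had 24 of 51 in this order (background 21.0%), and in the BT media for 22 of 51 (background 25.4%). The reverse order was found for 5, 3, 4 and 4 members, beside backgrounds of 20.0%, 25.6%, 26.0% and 23.1%. In each tissue the share of members without overlap was thus above the background upward and below it downward. In the BA intima the shares were 21.2% against 15.4% upward and 9.62% against 20.0% downward.

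Of 50 members tested in all 4 tissues, 13 (26%) had both ligated rabbits above both sham rabbits in at least 3 tissues, against 11% of all genes. They were SSR1, SSR2, SSR3, SSR4, SRP19, SRP72, SEC61A2, PDIA4, PDIA6, SEC23B, TMED9, TMED10 and KDELR1. All 4 SSR genes were among them. Separation in all 4 tissues was seen for SSR3 and PDIA4 (2 members, 4%; background 3.67%). In the other direction, SEC62 alone was below in all 4 tissues (1 member, 2%; background 3.12%), and no further member was below in 3 (background 11.5%).

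**Figure D2:**
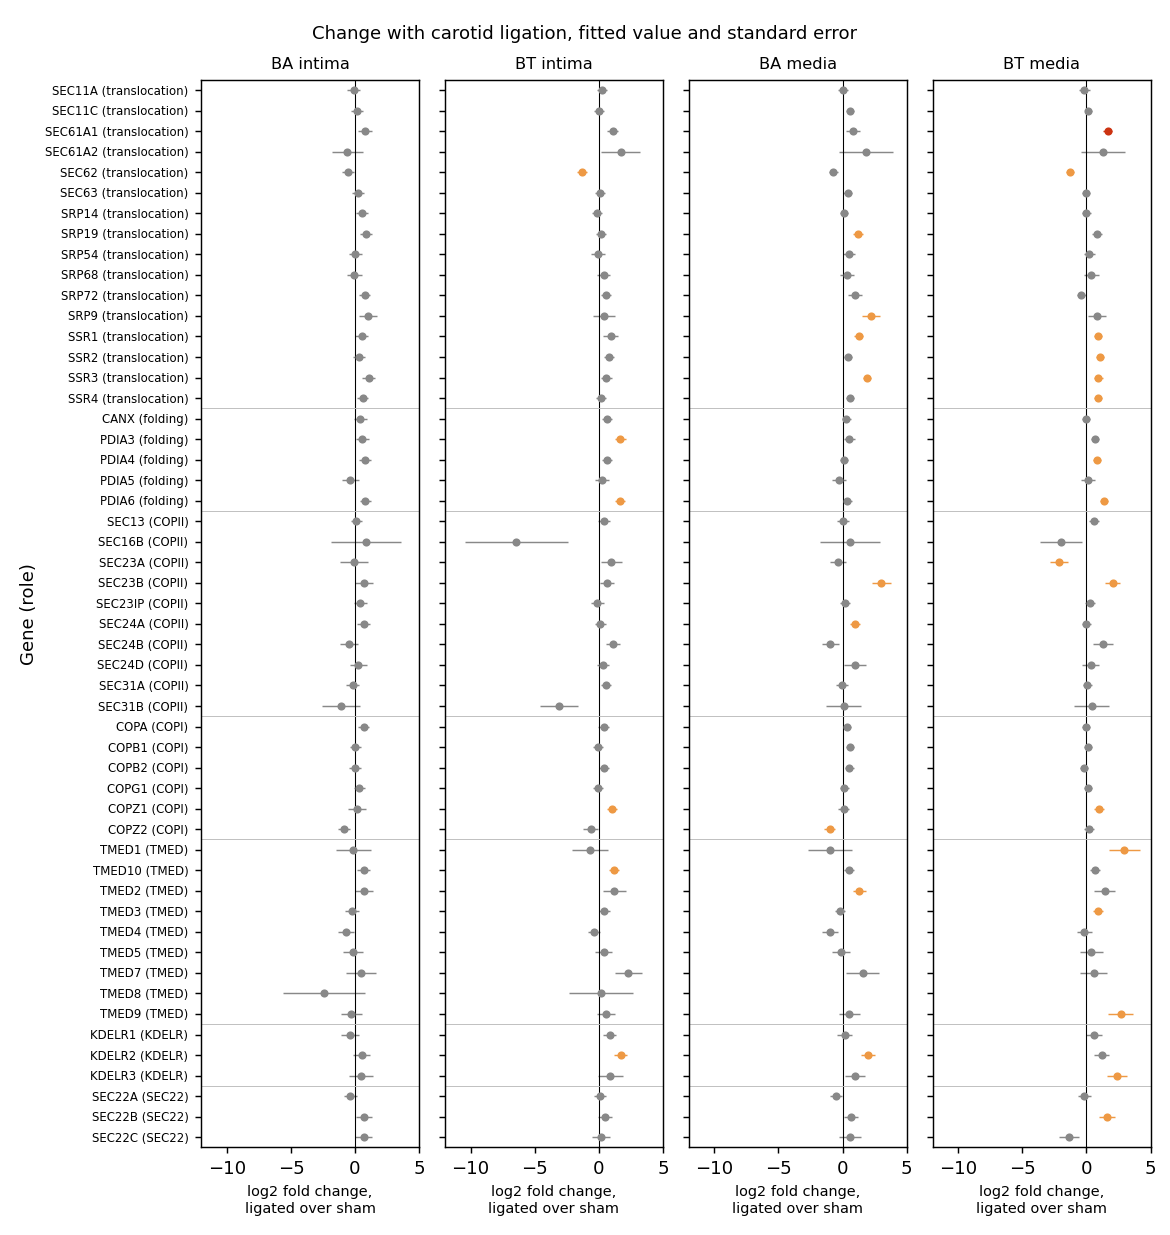
Fitted log2 fold change of each member, ligated over sham, in the 4 tissues, with its standard error, from 2 rabbits a group. Orange marks an unadjusted p under 0.05 and red a q-value under 0.05; most points lie right of 0 in each panel and only SEC61A1 in the BT media is red.

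Among the translocation genes, the pore subunit SEC61A1 rose in the BT media. It measured 66.8 and 77.6 CPM in the sham rabbits and 266 and 186 CPM in the ligated rabbits (log2 fold change 1.65, SE 0.37, q = 0.0388). Both ligated rabbits were far above both sham rabbits. Leaving out rabbit 5 gave q = 0.268, leaving out rabbit 6 gave q = 0.125, and the fit over all 16 libraries gave q = 0.221. In the BT intima SEC61A1 was at 56.3 and 81.0 CPM in the sham rabbits and 118 and 171 CPM in the ligated rabbits (log2 fold change 1.07, q = 0.429), again without overlap. In the BA its groups overlapped in the media, at 37.5 and 99.8 CPM in the sham rabbits and 145 and 93.6 CPM in the ligated rabbits, and touched in the intima, at 46.3 and 89.9 CPM in the sham rabbits and 89.9 and 142 CPM in the ligated rabbits.

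The SSR genes code for the 4 subunits of the translocon-associated protein complex. SSR3 measured 469.6 and 277 CPM in the sham rabbits and 1513 and 1250.2 CPM in the ligated rabbits in the BA media (log2 fold change 1.898, SE 0.34, q = 0.0529), just short of the threshold. With RLE size factors in place of TMM it passed, at q = 0.0497, and over the settings tried its q ran from 3.18e-06 to 0.514. In the other tissues the groups kept the same order without overlap. The BA intima had 417 and 208 CPM in the sham rabbits and 728 and 599.7 CPM in the ligated rabbits (log2 fold change 1.08, SE 0.50, q = 0.849). The BT media had 509 and 276 CPM in the sham rabbits and 730.2 and 759.8 CPM in the ligated rabbits, and the BT intima 371 and 194 CPM in the sham rabbits and 375 and 482 CPM in the ligated rabbits. The BT intima gap was small, since rabbit 3 and rabbit 5 were almost level there. SSR1, SSR2 and SSR4 each separated in 3 tissues. SSR1 went from 297 and 188 CPM to 520.1 and 638 CPM in the BA media (log2 fold change 1.27, q = 0.161), SSR2 from 211 and 283 CPM to 525 and 477 CPM in the BT media (log2 fold change 1.03, q = 0.122), and SSR4 from 474 and 439.5 CPM to 986 and 708 CPM in the BT media (log2 fold change 0.90, q = 0.167).

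SEC62, a membrane partner of the channel that serves small and post-translationally delivered proteins, went the other way. BT media levels were 628 and 676 CPM in the sham rabbits and 305 and 241 CPM in the ligated rabbits (log2 fold change -1.25, SE 0.30, q = 0.0547). The BT intima had 726 and 612 CPM in the sham rabbits and 307 and 242 CPM in the ligated rabbits (log2 fold change -1.28, SE 0.39, q = 0.323). Both ligated rabbits were well below both sham rabbits at the BT. Values in the BA media were 566 and 396 CPM in the sham rabbits and 366 and 214 CPM in the ligated rabbits (log2 fold change -0.72, SE 0.37, q = 0.443), and in the BA intima 508 and 468 CPM in the sham rabbits and 445 and 221 CPM in the ligated rabbits (log2 fold change -0.55, SE 0.49, q = 0.916). The separation in the BA was narrower, rabbit 5 lying close to the sham rabbits. In no tissue did SEC62 pass the threshold. Its partner SEC63 showed no such order, with 345 and 268 CPM in the sham rabbits and 307 and 302 CPM in the ligated rabbits in the BT media and 244 and 278 CPM in the sham rabbits and 329.6 and 221 CPM in the ligated rabbits in the BT intima.

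The signal recognition particle genes did not move as a block. SRP19, which helps SRP54 join the particle's RNA, was at 92.7 and 79.7 CPM in the sham rabbits and 168 and 138 CPM in the ligated rabbits in the BA intima (log2 fold change 0.83, SE 0.47, q = 0.861) and at 89.2 and 73.3 CPM in the sham rabbits and 177 and 196 CPM in the ligated rabbits in the BA media (log2 fold change 1.21, q = 0.200). SRP14, the best counted member of the role, spanned 674 to 1207 CPM in the 8 sham libraries and 656 to 1289 CPM in the 8 ligated libraries. Its log2 fold changes lay between -0.15 and 0.52, and its groups overlapped in the BT intima and both media. SRP72, a scaffold protein of the particle, measured 135 and 152 CPM in the sham rabbits and 213 and 212 CPM in the ligated rabbits in the BT intima but 185 and 135 CPM in the sham rabbits and 122 and 120.2 CPM in the ligated rabbits in the BT media. SEC61A2, the less counted relative of SEC61A1, stayed between 0 to 10.9 CPM.

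Of the folding genes, PDIA6 and PDIA3 carried most of the increase at the BT. PDIA6, a disulphide isomerase that works with the chaperone BiP, measured 134 and 113 CPM in the sham rabbits and 393 and 373 CPM in the ligated rabbits in the BT intima (log2 fold change 1.63, SE 0.38, q = 0.265). Its BT media levels were 103 and 93.6 CPM in the sham rabbits and 231 and 276 CPM in the ligated rabbits (log2 fold change 1.38, SE 0.34, q = 0.0577). Each ligated library there held over 2-fold the level of each sham library. The BA intima had 177 and 207 CPM in the sham rabbits and 277 and 395 CPM in the ligated rabbits (log2 fold change 0.81, SE 0.44, q = 0.861), also without overlap, whereas in the BA media the groups overlapped at 167 and 222 CPM in the sham rabbits and 277 and 216 CPM in the ligated rabbits. PDIA3, the isomerase that partners CANX on glycoproteins, was at 432 and 238 CPM in the sham rabbits and 1147 and 1001 CPM in the ligated rabbits in the BT intima (log2 fold change 1.68, SE 0.46, q = 0.286). PDIA3 in the BT media was at 452 and 268 CPM in the sham rabbits and 529 and 609 CPM in the ligated rabbits (log2 fold change 0.67, q = 0.351). In the BA its sham rabbits were themselves far apart, with 759.6 and 373 CPM in the intima and 716 and 268 CPM in the media, and the groups overlapped in both layers.

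PDIA4 separated in all 4 tissues. It measured 173 and 174 CPM in the sham rabbits and 314 and 305 CPM in the ligated rabbits in the BT media (log2 fold change 0.84, SE 0.31, q = 0.203) and 136 and 121 CPM in the sham rabbits and 192 and 205 CPM in the ligated rabbits in the BT intima (log2 fold change 0.63, q = 0.522). The sham rabbits differed little from each other in either. In the BA it was at 164 and 128 CPM in the sham rabbits and 228 and 270.2 CPM in the ligated rabbits in the intima and 224 and 222 CPM in the sham rabbits and 254 and 234 CPM in the ligated rabbits in the media, where the fitted log2 fold change was only 0.14. CANX ranged over 113 to 246 CPM in the sham libraries and 194 to 298 CPM in the ligated libraries. PDIA5 had overlapping groups and q-values of at least 0.851 in all 4.

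**Figure D3:**
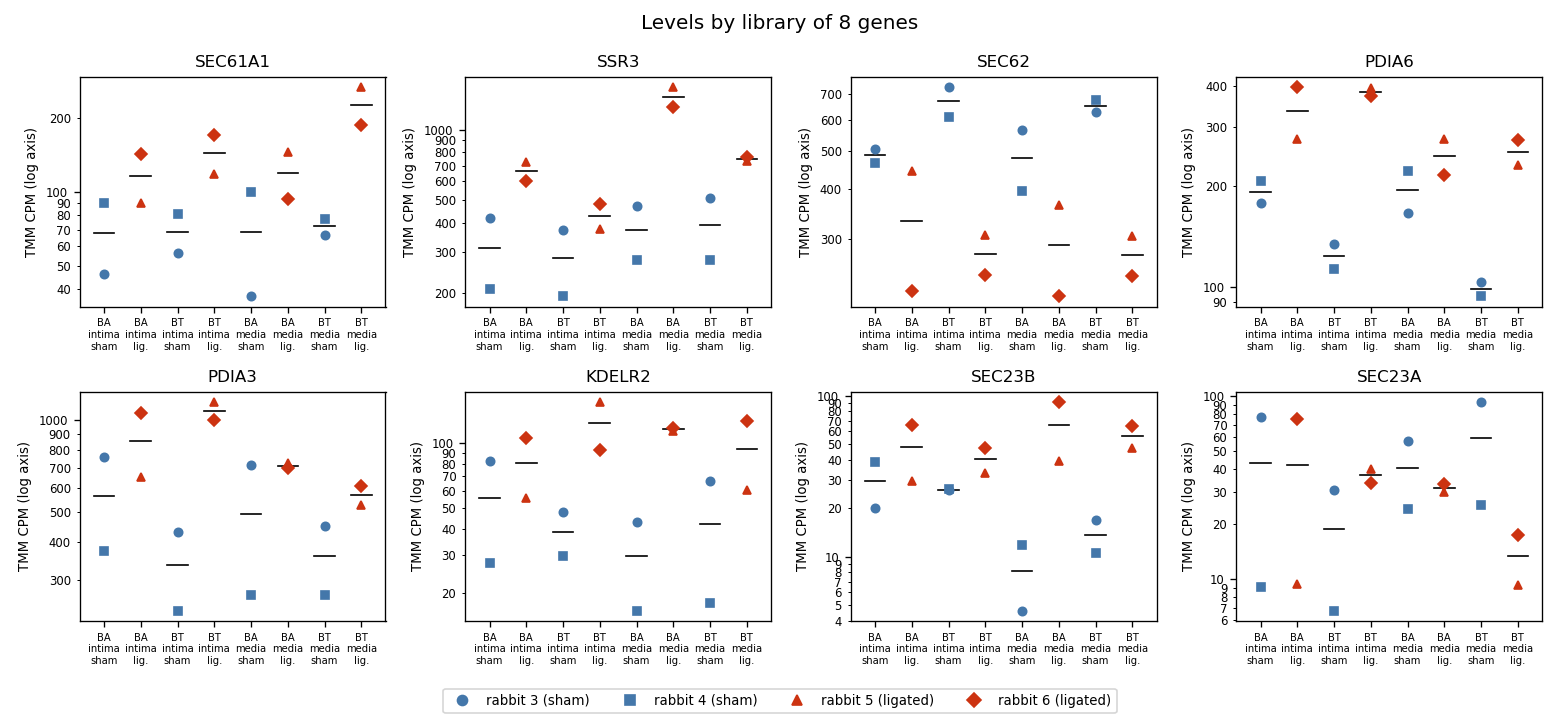
Levels of 8 members in each library, in TMM-scaled CPM on a log axis, by tissue and flow group. Symbols are rabbits and black bars are means of 2 rabbits; SEC62 is lower and SSR3 higher in the ligated rabbits of all 4 tissues, and SEC23B is higher in the ligated rabbits of both media.

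The COPII genes split between close relatives. SEC23 proteins form the inner coat and make the GTPase SAR1 hydrolyse its GTP. SEC23B in the BA media measured 4.62 and 11.8 CPM in the sham rabbits and 39.6 and 91.5 CPM in the ligated rabbits (log2 fold change 3.03, SE 0.72, q = 0.113). Its BT media values were 16.8 and 10.5 CPM in the sham rabbits and 47.1 and 65.1 CPM in the ligated rabbits (log2 fold change 2.05, SE 0.58, q = 0.0972). The lowest ligated rabbit was over 2-fold above the highest sham rabbit in both media. SEC23A in the BT media measured 93.2 and 25.5 CPM in the sham rabbits and 9.35 and 17.4 CPM in the ligated rabbits (log2 fold change -2.12, SE 0.69, q = 0.150). The BT intima had the reverse order, with 30.8 and 6.73 CPM in the sham rabbits and 40.2 and 33.8 CPM in the ligated rabbits. The sham rabbits differed several-fold from each other for SEC23A, rabbit 4 being lower in each tissue. In the intima SEC23B was at 26.0 and 26.2 CPM in the sham rabbits and 33.2 and 47.5 CPM in the ligated rabbits at the BT and 20.1 and 38.6 CPM in the sham rabbits and 29.4 and 66.0 CPM in the ligated rabbits in the BA, where the groups overlapped.

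The other COPII genes had no common direction. SEC13, shared by the COPII outer coat and the nuclear pore, spanned 76.5 to 230.5 CPM in the sham libraries and 113 to 200.2 CPM in the ligated libraries. SEC31A, its partner, was at 103 and 103 CPM in the sham rabbits and 158 and 145 CPM in the ligated rabbits in the BT intima and 111 and 109 CPM in the sham rabbits and 108 and 124 CPM in the ligated rabbits in the BT media. SEC31B was scarce, with 6.90 and 6.88 CPM in the sham rabbits and 0.518 and 1.07 CPM in the ligated rabbits in the BT intima (log2 fold change -3.10, SE 1.51, q = 0.483). SEC16B, a paralogue of the exit site scaffold, had 27 counts in the sham rabbit 3 and none in the other 3 BT intima libraries, so its mean there was at least 3.61-fold lower after ligation, counted against a floor of 3 counts per library. That bound rests on 1 library. SEC24B, a cargo-binding subunit, measured 20.2 and 20.2 CPM in the sham rabbits and 52.8 and 35.7 CPM in the ligated rabbits in the BT intima and 11.3 and 7.58 CPM in the sham rabbits and 15.9 and 29.2 CPM in the ligated rabbits in the BT media, with the ligated rabbits higher. In the BA media it was at 30.6 and 31.1 CPM in the sham rabbits and 20.6 and 11.01 CPM in the ligated rabbits, with the ligated rabbits lower.

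Among the COPI genes, COPZ1 and COPZ2 are alternative small subunits of the coat. COPZ2 measured 163 and 184 CPM in the sham rabbits and 58.0 and 113 CPM in the ligated rabbits in the BA media (log2 fold change -0.995, SE 0.43, q = 0.360) and 121 and 125 CPM in the sham rabbits and 58.1 and 79.2 CPM in the ligated rabbits in the BA intima (log2 fold change -0.84, SE 0.48, q = 0.862). Both ligated rabbits were below both sham rabbits in the BA. Its groups overlapped in the BT intima, at 105 and 68.5 CPM in the sham rabbits and 34.0 and 77.5 CPM in the ligated rabbits, and in the BT media the ligated values were the higher ones, at 70.3 and 79.7 CPM in the sham rabbits and 90.1 and 81.1 CPM in the ligated rabbits. COPZ1 was at 118 and 102 CPM in the sham rabbits and 199 and 242 CPM in the ligated rabbits in the BT intima (log2 fold change 0.998, q = 0.405) and 69.4 and 98.6 CPM in the sham rabbits and 173 and 159 CPM in the ligated rabbits in the BT media (log2 fold change 0.99, q = 0.207). The large coat subunit COPB1, the best counted COPI gene, had log2 fold changes from -0.10 to 0.58, with q-values of at least 0.488.

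For retrieval, KDELR2 was the best counted of the 3 receptors that bind the KDEL tail of ER chaperones. It measured 42.7 and 16.5 CPM in the sham rabbits and 114 and 118 CPM in the ligated rabbits in the BA media (log2 fold change 1.98, SE 0.54, q = 0.161). BT intima levels of KDELR2 were 47.6 and 29.9 CPM in the sham rabbits and 156 and 93.5 CPM in the ligated rabbits (log2 fold change 1.69, SE 0.51, q = 0.321). Both of these tissues were without overlap, while the BT media, at 66.5 and 17.9 CPM in the sham rabbits and 60.5 and 127 CPM in the ligated rabbits, and the BA intima, at 82.9 and 27.7 CPM in the sham rabbits and 55.6 and 106 CPM in the ligated rabbits, overlapped. KDELR1 was at 25.03 and 20.9 CPM in the sham rabbits and 40.5 and 41.6 CPM in the ligated rabbits in the BT intima. KDELR3 had both ligated rabbits above both sham rabbits in the BT media, at 3.49 and 9.19 CPM in the sham rabbits and 28.4 and 39.0 CPM in the ligated rabbits (log2 fold change 2.40, SE 0.76, q = 0.138).

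Of the TMED cargo receptors, TMED10, TMED9 and TMED3 had both ligated rabbits above both sham rabbits in both layers of the BT. TMED10, the best counted, measured 131 and 87.7 CPM in the sham rabbits and 272 and 228 CPM in the ligated rabbits in the BT intima (log2 fold change 1.20, q = 0.367) and 142 and 76.1 CPM in the sham rabbits and 167 and 184 CPM in the ligated rabbits in the BT media (log2 fold change 0.70, q = 0.407). TMED9 in the BT media was at 4.36 and 1.61 CPM in the sham rabbits and 18.1 and 19.3 CPM in the ligated rabbits (log2 fold change 2.68, q = 0.200). TMED3, with negative fitted changes in both layers of the BA, had a log2 fold change of 0.90 in the BT media (q = 0.255). Its levels there were 74.9 and 109 CPM in the sham rabbits and 156 and 184 CPM in the ligated rabbits. TMED4 lay the other way, lower by fitted sign in all 4 tissues and without overlap in the BA media and the BT intima. BT intima levels of TMED4 were 55.9 and 43.8 CPM in the sham rabbits and 38.6 and 38.6 CPM in the ligated rabbits. It measured 27.3 and 38.3 CPM in the sham rabbits and 15.8 and 17.3 CPM in the ligated rabbits in the BA media (log2 fold change -0.97, SE 0.62, q = 0.533) and 30.0 and 78.7 CPM in the sham rabbits and 27.3 and 38.7 CPM in the ligated rabbits in the BA intima (log2 fold change -0.71, SE 0.65, q = 0.916). Without rabbit 4 its fitted change in the BA intima turned positive, at 0.11. TMED8 was counted in 8 libraries and reached at most 4.11 CPM, and it was too low for the media tests. Of the SEC22 genes, SEC22A spanned 31.1 to 91.2 CPM in the sham libraries and 39.7 to 70.2 CPM in the ligated libraries. SEC22C in the BT media was at 25.3 and 20.5 CPM in the sham rabbits and 11.5 and 6.43 CPM in the ligated rabbits (log2 fold change -1.35, SE 0.77, q = 0.423). SEC22B went the other way there, at 22.9 and 10.6 CPM in the sham rabbits and 36.5 and 61.8 CPM in the ligated rabbits (log2 fold change 1.57, SE 0.62, q = 0.236). Its fitted change was positive in all 4 tissues.

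Genes of the wider ER pathway were followed for comparison, from lists that the members do not belong to. The background for the counts by fitted sign was 50.8% of all genes higher in the BT media and 44.7% in the BA media. It was 45.1% in the BT intima and 45.8% in the BA intima. For genes called in the BT media the background was 1.16% higher and 1.18% lower. The list of ER chaperones and other targets of the unfolded protein response had 12 of 16 tested genes higher by fitted sign in the BT media, 1 called higher and none lower, with a median log2 fold change of 0.57. It had 13 of 16 higher in the BA media (median 0.59), 10 of 17 in the BT intima (0.71) and 9 of 17 in the BA intima (0.04). SDF2L1, an ER protein of the BiP co-chaperone complex, was the gene called in the BT media. It rose there from 75.5 and 58.2 CPM to 351 and 245 CPM (log2 fold change 2.17, SE 0.37, q = 0.0105). It showed the same order without overlap in the BT intima, with 58.5 and 51.8 CPM in the sham rabbits and 248 and 301 CPM in the ligated rabbits (q = 0.247), in the BA intima, with 60.0 and 79.2 CPM in the sham rabbits and 247 and 259.6 CPM in the ligated rabbits (q = 0.486), and in the BA media, with 73.7 and 99.0 CPM in the sham rabbits and 256 and 277 CPM in the ligated rabbits (q = 0.0825). Of 12 genes of N-glycosylation and glycoprotein sorting, 10 were higher in the BT media and 2 were called, the oligosaccharyltransferase subunits DDOST (log2 fold change 1.95, SE 0.37, q = 0.0204) and RPN2 (log2 fold change 1.39, SE 0.32, q = 0.0449). In the other tissues 11 of 12 of this list were higher in the BT intima and 8 of 12 in each layer of the BA. In the BT media DDOST went from 63.3 and 45.8 CPM to 199 and 219 CPM, and RPN2 from 139.7 and 115 CPM to 338 and 327 CPM. The ligated rabbits were above the sham rabbits for both. Of 8 collagen-folding genes, all 8 were higher by fitted sign in the BT media, and PPIB, a prolyl isomerase of the ER, was called, with 270.4 and 350.2 CPM in the sham rabbits and 858 and 874 CPM in the ligated rabbits (log2 fold change 1.49, SE 0.30, q = 0.0271). All 8 were also higher in the BT intima (median log2 fold change 0.72), but 5 of 8 in the BA intima (0.66) and 4 of 8 in the BA media (0.03). Further vesicle traffic genes had 10 of 14 higher and none called in the BT media, with a median log2 fold change of 0.36, and 8 of 14, 10 of 14 and 8 of 13 higher in the BT intima, BA intima and BA media.

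The sensors and transcription factors of the unfolded protein response were mostly lower by fitted sign in the ligated rabbits. Of the tested genes of this list, 1 of 11 was higher in the BA intima (background 45.8%) and 1 of 10 in the BT intima (background 45.1%). In the media 2 of 11 were higher in the BA (background 44.7%) and 4 of 11 at the BT (background 50.8%). Its median log2 fold change was -0.55, -0.46, -0.72 and -0.44 in this order. Not all of the list fell in the BT media. EIF2AK3 was higher there without overlap, at 5.52 and 18.4 CPM in the sham rabbits and 42.7 and 47.1 CPM in the ligated rabbits. So was CEBPB, at 9.01 and 17.6 CPM in the sham rabbits and 33.0 and 59.2 CPM in the ligated rabbits. Neither was called. DDIT3 (CHOP), a transcription factor induced by ER stress, fell in the BT media from 1007 and 896 CPM to 379.6 and 361 CPM (log2 fold change -1.35, SE 0.29, q = 0.0347). DDIT3 in the BT intima was at 416 and 456 CPM in the sham rabbits and 293 and 232 CPM in the ligated rabbits, and in the BA media the groups overlapped at 777 and 877 CPM in the sham rabbits and 563 and 927 CPM in the ligated rabbits. HERPUD1, an ER membrane protein of protein degradation, was at 491 and 199.98 CPM in the sham rabbits and 142 and 126 CPM in the ligated rabbits in the BT intima and 358 and 222 CPM in the sham rabbits and 174 and 183 CPM in the ligated rabbits in the BA media, with q-values of at least 0.401 in the 4 tissues. In each of the 4 tissues both ligated rabbits were below both sham rabbits. The chaperones HSPA5 and HSP90B1 had positive fitted changes in all 4 tissues, none of them called. HSPA5 (BiP) measured 339.6 and 146 CPM in the sham rabbits and 540.3 and 439 CPM in the ligated rabbits in the BT intima, and overlapped in the BA intima, BA media and BT media. HSP90B1 was above the sham rabbits in both ligated rabbits of each tissue, for example 1916 and 1647 CPM in the sham rabbits and 2801 and 2436 CPM in the ligated rabbits in the BT media (log2 fold change 0.57, q = 0.360). HYOU1 was at 0 to 10.2 CPM over the 16 libraries, too low to compare. None of these list genes was called in the BA intima, BT intima or BA media, and SERPINH1, XBP1 and ATF4 were not analysed here.

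Between the layers, COPG1, the gamma subunit of the COPI coat, was lower in the intima, and no other member passed the test. In the fit of intima against media over 16 libraries, 31 of 52 were higher in the intima by fitted sign (background 54.6%), and 1 of 52 was called, lower in the intima (background 7.17%, made of 3.99% higher and 3.19% lower). At an unadjusted p under 0.05, 4 members were higher and 6 lower (background 11.7% and 9.15%). The median log2 fold change was 0.07, against 0.09 over all genes. The called gene was COPG1. Its median was 213 CPM over the 8 intima libraries (range 161 to 343) and 388 CPM over the 8 media libraries (range 305 to 489), and each of the 8 intima libraries was below the media library cut beside it (log2 fold change -0.77, SE 0.17, q = 0.0131). Scaled by library size alone, COPG1 was at q = 0.0586. Leaving out rabbit 4, 5 or 6 gave q = 0.0968, 0.114 and 0.0928. SSR3 and TMED3 were also lower in the intima in all 8 pairs (3 members, 5.77%; background 3.56%), and TMED4 was higher in all 8 (1 member, 1.92%; background 4.88%).

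SSR3 had a median of 396 CPM in the intima, with a range of 194 to 728, and of 619.7 CPM in the media, with a range of 276 to 1513. The ranges overlapped widely across the flow groups. Its log2 fold change was -0.65 (q = 0.0848), and with each rabbit and location as a block it was called, at q = 0.0130, making 2 members called. TMED3 had a median of 82.0 CPM in the intima, with a range of 52.3 to 105, and of 117 CPM in the media, with a range of 74.9 to 184 (log2 fold change -0.59, SE 0.19, q = 0.0742). On the other side, TMED4 had an intima median of 38.6 CPM, with a range of 27.3 to 78.7, and a media median of 27.9 CPM, with a range of 15.8 to 38.3 (log2 fold change 0.73, SE 0.26, q = 0.114). By library size alone TMED4 was called, with a log2 difference of 0.96 and q = 0.0414. Higher fitted levels in the intima were also found for SEC22C and SEC22B, with log2 fold changes of 0.89 (SE 0.37, q = 0.177) and 0.73 (SE 0.31, q = 0.182). SEC22C was higher in 7 of 8 pairs and SEC22B in 5 of 8.

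**Figure D4:**
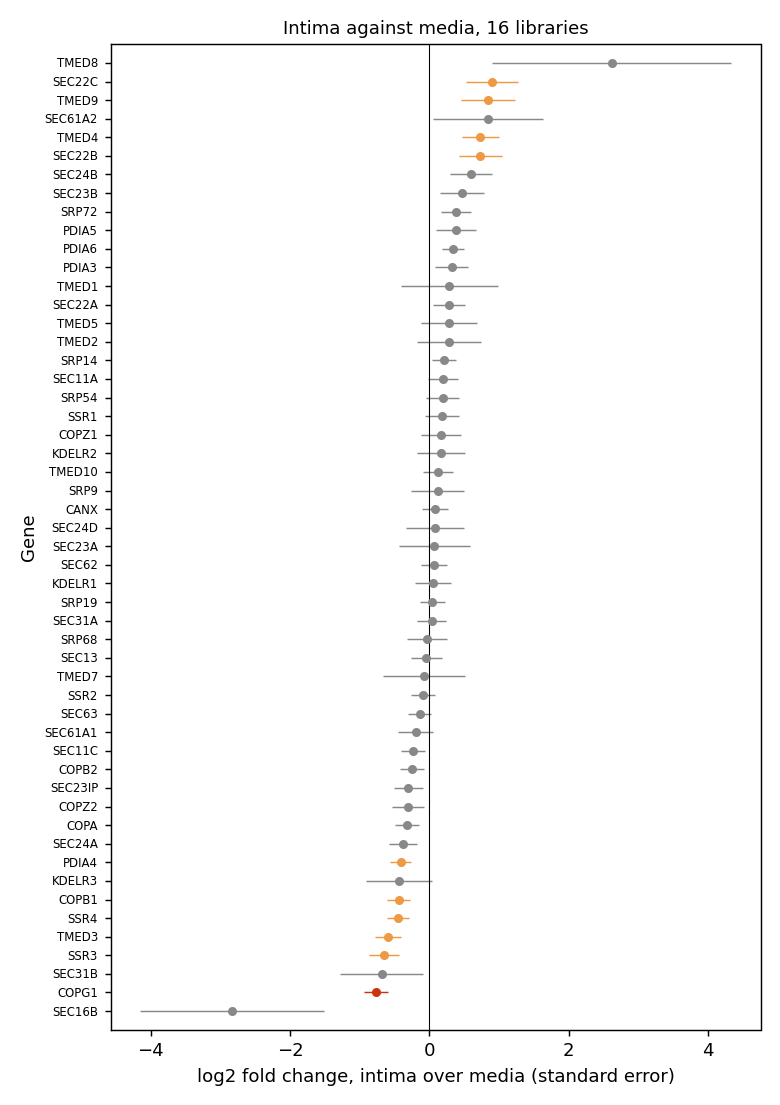
Fitted log2 fold change of each member, intima over media, with its standard error, over 16 libraries. Orange marks an unadjusted p under 0.05 and red a q-value under 0.05; points spread to both sides of 0 and only COPG1, lower in the intima, is red.

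The BT did not differ detectably from the BA for any member. In the intima 22 of 52 were higher at the BT by fitted sign (background 49.6%), with none called (background 0.0%) and none at an unadjusted p under 0.05 in edgeR (background 1.22% higher and 1.87% lower). COPG1 was the only member without overlap between the locations, lower at the BT (background 0.664%). In the media 18 of 51 were higher (background 49.8%), none was called (background 0.032%), and 3 were lower at an unadjusted p under 0.05 (background 2.76%). SEC23IP alone had no overlap, higher at the BT (background 1.0%). DESeq2 called 0 members in the intima and 0 in the media. The 3 were KDELR3 (log2 fold change -1.21, SE 0.55, q = 0.967), COPZ2 (log2 fold change -0.61, SE 0.29, q = 0.967) and SSR1 (log2 fold change -0.50, SE 0.24, q = 0.967). KDELR3 had BA media values of 7.45 and 42.0 CPM in the sham rabbits and 49.6 and 43.8 CPM in the ligated rabbits, where only the sham rabbit 3 was low. SEC61A1 and SEC23IP, a protein that binds SEC23, had the smallest p of those higher in the BT media, at log2 fold changes of 0.49 and 0.38. In the intima COPG1 (log2 fold change -0.48, SE 0.26, q = 1.00) and SEC13 (log2 fold change -0.52, SE 0.30, q = 1.00) had the smallest p on the lower side, and KDELR1 and SRP19 on the higher side, at 0.48 and 0.33.

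No member's response to ligation was shown to depend on location or layer. The test of a different ligation change at the BT than in the BA called none in the intima (background 0.0%; none at an unadjusted p under 0.05; DESeq2 0). In the media it called none either (background 0.0213%; 2 higher and 1 lower at an unadjusted p under 0.05, with backgrounds of 3.49% and 2.94%; DESeq2 0). The 3 in the media were PDIA6 (log2 fold change 1.02, SE 0.47, q = 0.772), SEC24B (log2 fold change 2.23, SE 1.04, q = 0.772) and SRP72 (log2 fold change -1.39, SE 0.64, q = 0.772). For PDIA6 this set the wide gap in the BT media beside the overlapping groups in the BA media. By p, SSR3 was the next gene downward, at -0.97, with the larger ligation change in the BA media. In the intima SEC24B (log2 fold change 1.57, SE 0.82, q = 1.00) and PDIA3 (log2 fold change 1.07, SE 0.69, q = 1.00) had the smallest p upward, and SEC16B and SRP14, the latter at -0.70, downward. The test of a different change in the intima than in the media called none (background 0.0%; 1 lower at an unadjusted p under 0.05, with a background of 3.25%; DESeq2 0). That gene was SEC23B (log2 fold change -1.86, SE 0.64, q = 0.824), with SEC31B, at -2.33, next by p downward, while SEC23A and PDIA3 had the smallest p upward, at 1.71 and 0.54. Standard errors of these differences had medians of 0.70, 0.61 and 0.48 over the members on the log2 scale. Differences of those sizes, and well above them, could go undetected with 2 rabbits a group. SEC24B, at 2.23 in the media, was not called.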

How the data were processed

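RNA of 16 laser-microdissected samples was amplified with SMART-Seq v4, made into Nextera libraries and sequenced as single reads. The authors aligned reads to OryCun2.0 with STAR (version not given in the sources used here), kept unique alignments (SAMtools 1.9) and counted reads in Ensembl exons on the reverse strand with featureCounts 1.6.2. The deposited values are these raw counts per gene symbol. The counting used a strand setting, and the amplification kit does not mark strand, so overlapping genes on opposite strands cannot be told apart. Reads shared by close copies were dropped, and counts of paralogues are uncertain to that extent. A row without a symbol (13.8 to 18.7% of counts per library) was left out.

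Counts were analysed with edgeR 4.0.16 in R 4.3.3: TMM scaling, genes with a mean above 1 CPM in at least 1 group of the fit, a quasi-likelihood F test and Benjamini-Hochberg q-values over all genes tested, called below 0.05. Ligation was fitted in each tissue from its own 4 libraries. Layer, location and interaction contrasts used the 16 libraries, or the 8 of 1 layer. SE is the absolute log2 fold change divided by the root of F. Levels are not divided by gene length and were not compared between genes. Alternatives were RLE and library-size scaling, no filter on low counts, DESeq2 1.42.0, the version 4 form of the edgeR test, a fit over all libraries, a replicate block and leaving out each rabbit. BA and BT, and intima and media, of 1 rabbit are paired by animal. Deviations of same-rabbit libraries from their group means correlated at r = -0.03 to 0.39 across genes. Sham and ligated rabbits are different animals and were compared unpaired. The scripts were tested on simulated data.

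Members and lists were chosen with earlier results of these data known. Named were members called in any comparison, the members with the smallest p in each direction, the best counted member of each role, members counted in under 8 libraries (none), and the called and 8 set genes of the wider pathway. Other members named as belonging to a counted group were chosen after their values were seen. Of the 52 symbols, 50 were in the RefSeq symbol table of another rabbit assembly, so no coordinates are given. Precision is limited by 2 rabbits a group. The floor of 3 counts covers counting error only.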

Additional observations from a re-analysis of the deposited data

Results flagged for a closer look

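In 3 members every ligated library lay on 1 side of the sham libraries in one layer and on the opposite side in the other layer of the same location. At the BT, SEC23A had a log2 fold change of 0.97 in the intima and -2.12 in the media. SRP72 had 0.57 in the BT intima and -0.39 in the BT media. In the BA, KDELR1 had -0.40 in the intima (22.6 and 28.2 CPM in the sham rabbits and 16.1 and 22.4 CPM in the ligated rabbits) and 0.15 in the media (23.5 and 24.4 CPM in the sham rabbits and 26.4 and 26.2 CPM in the ligated rabbits). The differences between layers at a single location were not tested. Averaged over locations, the test of a different ligation change between layers gave q = 1.00 for SEC23A, 1.00 for SRP72 and 1.00 for KDELR1.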

How the results depend on the processing

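The count of members called depended on the tool, the filter and single rabbits. In the BT media, 1 member was called in the fit as reported, 2 with library-size scaling, 5 with no filter on low counts, 8 with DESeq2, 0 with the version 4 form of edgeR and 0 in the fit over all libraries, while the share of all genes called was 2.35% as reported and 2.20%, 5.32%, 6.68%, 1.73% and 0.215% in these. Leaving out 1 rabbit gave 0 to 9 there (9 without rabbit 3, 6 without rabbit 4, 0 without rabbit 5 or 6, beside 7.37%, 7.005%, 1.25% and 0.440% of all genes). In the BA media RLE scaling gave 1, no filter 4 and DESeq2 5, against 0 (0.932%, 4.89% and 5.60% of all genes, against 0.807%). In the BT intima DESeq2 gave 3 and the fit over all libraries 1, against 0 (6.61% and 0.655% of all genes, against 0.0%). For the layers no filter gave 2 and DESeq2 6, against 1 (10.2% and 13.1% of all genes, against 7.17%), and leaving out 1 rabbit gave 0 to 3 (3 without rabbit 3, 0 without rabbit 4, 5 or 6, beside 6.71%, 3.65%, 2.49% and 1.93% of all genes). With the pair of layers as a replicate block, 2 members were called between layers, COPG1 and SSR3, beside 7.60% of all genes. The block changed no other count: the location and interaction tests called 0 members with it. In the BA intima, the BT intima, the BA media, the location tests and the interaction tests, leaving out 1 rabbit gave 0 to 0. The cause of these moves was not tested, apart from the smaller group in fits that leave out a rabbit, where the lone rabbit is assumed to vary like the others.

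The median log2 fold change of the members stayed above 0 in all 4 tissues without any 1 rabbit, at 0.03 to 0.41 in the BA intima, 0.28 to 0.56 in the BT intima, 0.29 to 0.46 in the BA media and 0.37 to 0.74 in the BT media. With library-size scaling the median over all genes moved by over 0.1 in the BA media (to -0.29), the BT media (to 0.18) and between layers (to 0.31). The members' medians in these were 0.31, 0.55 and 0.30. Over the named members, 456 values kept their direction and side of the threshold, 32 passed it newly, 8 lost it and 1 turned sign, TMED4 in the BA intima without rabbit 4 (0.11, in a range of -1.24 to 0.11). The 8 were those of SEC61A1 in the BT media and COPG1 between layers, 4 each. With 2 rabbits a group, few degrees of freedom stand behind each ligation test.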

Other observations

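The balance of paralogues was compared as ratios of their counts within a library, which no scaling of the libraries affects. The pairs were chosen after their values were seen, and no test was run. In the BT media, counts of SEC23B over SEC23A were at 0.181 and 0.411 in the sham rabbits and 3.74 and 5.03 in the ligated rabbits. In the BA media they were at 0.0807 and 0.486 against 1.32 and 2.75. SEC23A was thus the better counted in all 4 sham media libraries and SEC23B in all 4 ligated media libraries. In the intima the ranges overlapped, at 0.844 to 3.89 against 0.826 to 1.41 at the BT and 0.261 to 4.23 against 0.883 to 3.10 in the BA.

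COPZ1 over COPZ2 showed the same order in 3 tissues. In the BT intima the ratio was 1.13 to 1.496 in the sham rabbits and 3.13 to 5.84 in the ligated rabbits, in the BA media 0.644 to 0.858 against 1.51 to 1.77, and in the BT media 0.988 to 1.24 against 1.92 to 1.96. In the BA intima the ranges overlapped, at 0.614 to 1.36 against 0.799 to 2.82. KDELR2 over KDELR1 separated in the BA media, at 0.678 to 1.82 against 4.32 to 4.52, and in the BT intima, at 1.43 to 1.9 against 2.25 to 3.85.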
